A study of Mus musculus with 4 samples.

Results

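The mitochondrial genome of the mouse is a small circle that carries genes for protein subunits of the respiratory chain, for the RNAs of the mitochondrial ribosome and for the tRNAs that read its messages. All rows of the gene table placed on chromosome MT were taken, which gave 37 of the 54532 genes listed. By the table's biotypes they are 13 protein-coding genes, 2 rRNA genes (mt-Rnr1 and mt-Rnr2) and 22 tRNA genes. RNA came from DC2.4 cells, an immortalised mouse dendritic cell line, and was sequenced as paired-end libraries from total RNA. One group was treated with ginsenoside Rb1, a triterpene saponin of ginseng, at 10 uM for 24 h (2 libraries), and the other was kept with vehicle for 24 h (2 libraries). The vehicle is not named in the labels, and both groups are cultures of the same line with no genetic change. Rb1 is here always the compound, not the retinoblastoma gene.

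Both strands of the mitochondrial genome are transcribed as long precursors by the polymerase POLRMT with the factors TFAM and TFB2M. In the precursors tRNAs lie between most mRNAs and rRNAs, and cutting out the tRNAs frees the others. The complex of LRPPRC and SLIRP protects mitochondrial mRNAs, while the helicase SUPV3L1 and the nuclease PNPT1 degrade mitochondrial RNA. In immune cells the respiratory chain provides ATP and also takes part in activation and inflammatory signalling. The table places 28 of the 37 genes on the plus strand and 9, namely mt-Nd6 and 8 tRNA genes, on the minus strand.

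A pair of sequences shows why levels of some mRNAs are uncertain. A stretch of chromosome 1 holds a near-identical copy of the part of the mitochondrial genome that runs from the end of mt-Co1 into mt-Nd4. Below are the first 120 bases of mt-Nd3 (chrMT:9459-9578, plus strand) and of its nuclear copy Gm28438 (chr1:24613000-24613119, minus strand), from GENCODE M21 (GRCm38). The capital marks the base at which the whole 345 bases shared by both genes differ, T3C, counted from 1 at the first base of mt-Nd3.
mt-Nd3: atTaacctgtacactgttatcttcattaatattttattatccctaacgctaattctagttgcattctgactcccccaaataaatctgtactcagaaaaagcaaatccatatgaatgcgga
Gm28438: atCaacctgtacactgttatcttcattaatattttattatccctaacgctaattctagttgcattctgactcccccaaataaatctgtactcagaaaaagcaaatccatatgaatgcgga

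A further 6 sequences are tRNA genes, shown because those of the plus strand were called higher with Rb1 and those of the minus strand were not. Read from the plus strand are mt-Th (histidine, chrMT:11546-11612), mt-Tl2 (leucine, chrMT:11671-11741) and mt-Tg (glycine, chrMT:9391-9458). Read from the minus strand are mt-Tp (proline, chrMT:15356-15422), mt-Tn (asparagine, chrMT:5089-5159) and mt-Tc (cysteine, chrMT:5192-5257). Each is written 5′ to 3′ as its own transcript, with DNA letters, and the capitals mark the anticodon, found as the middle of a 7-base loop closed by a 5-base stem.
mt-Th: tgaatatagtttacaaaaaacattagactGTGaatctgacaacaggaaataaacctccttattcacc
mt-Tl2: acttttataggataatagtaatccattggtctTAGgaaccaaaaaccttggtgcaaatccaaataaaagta
mt-Tg: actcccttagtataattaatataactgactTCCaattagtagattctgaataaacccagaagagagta
mt-Tp: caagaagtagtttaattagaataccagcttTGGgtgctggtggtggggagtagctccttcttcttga
mt-Tn: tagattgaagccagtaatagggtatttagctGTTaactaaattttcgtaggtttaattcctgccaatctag
mt-Tc: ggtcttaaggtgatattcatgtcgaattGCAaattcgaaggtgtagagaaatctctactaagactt

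The libraries held between 17829784 and 18641021 counts, and 13518 genes had enough counts to be tested. The labels call the libraries biological replicates and do not say what separated them, so the p-values rest on the spread between these 4 samples, which may be technical. The vehicle libraries differed more from each other (chi-square per degree of freedom 11.8) than the Rb1 libraries did (2.87). Of 12 markers of dendritic and myeloid cells, 10 had a mean of at least 1 CPM, while Flt3 and H2-Ab1 did not. Their summed level was 1158 to 1179 CPM with Rb1 and 1958 to 1967 CPM with vehicle. Cd74 made up most of the difference (517 and 495 CPM with Rb1, 1053 and 1056 CPM with vehicle). In proportion Fcgr3 (3.24 and 5.15 CPM with Rb1, 63.7 and 59.8 CPM with vehicle) and Itgax (3.54 and 3.09 against 27.6 and 30.2 CPM) fell most. Of the 10 markers, only Ptprc and Zbtb46 were higher with Rb1. Ptprc was at 237 and 240 CPM with Rb1 and 107 and 113 CPM with vehicle, and Zbtb46 at 6.34 and 5.62 CPM with Rb1 and 2.21 and 1.84 CPM with vehicle. Of 19 markers of 7 other cell types, Pecam1 alone reached a mean of 1 CPM. Gene models over 5 kb held 40.5% and 40.1% of the counts in the Rb1 libraries, against 27.9% and 30.4% in the vehicle libraries, so the length of a gene model moved with the treatment. CPM are TMM-normalized counts scaled by library size. A gene was called when its adjusted p (edgeR, quasi-likelihood, Benjamini-Hochberg over all genes tested) was under 0.05.

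The share of RNA counts that lay on the mitochondrial genome was 3.42 times as high with Rb1. It was 1.87% and 1.84% of all counts in the Rb1 libraries, against 0.585% and 0.501% in the vehicle libraries. The groups did not overlap, and the difference of the means was 1.31 percentage points (exact permutation test, two-sided, p = 0.333, the smallest that 2 against 2 libraries can give). In bulk RNA a change in how much of it each cell holds and a change in which cells are present cannot be told apart. The 3 classes did not share this difference. Protein-coding genes held 1.74% and 1.72% of counts in the Rb1 libraries, against 0.386% and 0.350% in the vehicle libraries. The 2 rRNAs held 0.116% and 0.115% in the Rb1 libraries, against 0.188% and 0.142% in the vehicle libraries. The 22 tRNAs together held 0.0106% and 0.0102% in the Rb1 libraries, against 0.0114% and 0.00878% in the vehicle libraries, and here the groups overlapped.

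**Figure D1:**
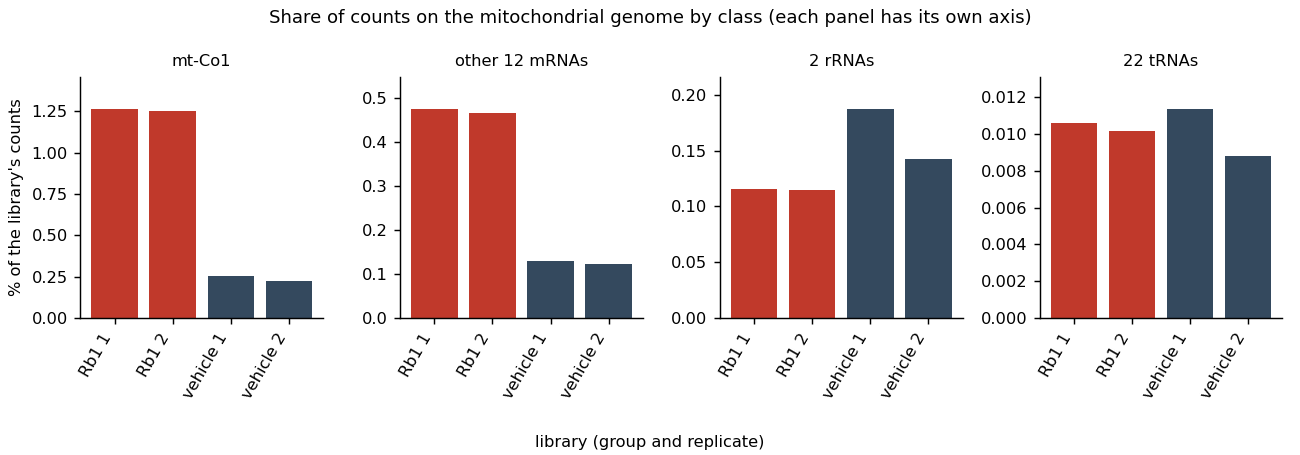
Percent of each library's counts (y axis, a separate scale in each panel) for mt-Co1, the other 12 mRNAs, the 2 rRNAs and the 22 tRNAs, with 1 bar per library (Rb1 red, vehicle dark). mt-Co1 took 1.27% and 1.25% of counts with Rb1 and 0.256% and 0.227% with vehicle, while the rRNA bars are lower with Rb1 and the tRNA bars overlap.

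The mRNA of cytochrome c oxidase subunit I held most of the mt mRNA counts in all 4 libraries. mt-Co1 (ENSMUSG00000064351, chrMT:5328-6872, GRCm38), the catalytic core of complex IV, had 11613 and 11500 CPM in the Rb1 libraries, against 2853 and 2411 CPM in the vehicle libraries. By count it ranked 2 among all genes in both Rb1 libraries, and 27 and 31 in the vehicle libraries. It was 4.39-fold higher with Rb1 (log2 fold change 2.13, SE 0.11, edgeR adjusted p = 1.3e-08). mt-Co1 made up 72.7% and 72.9% of the mt mRNA counts in the Rb1 libraries, against 66.2% and 64.8% in the vehicle libraries.

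Of the 37 mt genes 24 were tested, and 20 of these were called by edgeR (18 higher, 2 lower), where 72% of all genes tested were called. Of the 13 mRNAs 12 had enough counts to be tested, and all 12 were called higher with Rb1. Over all genes 35.7% were called higher and 36.3% lower, and groups did not overlap in 86.3%. All 12 were at least 2-fold higher, where 14.2% of all genes were, and 5 were at least 4-fold higher, where 2.77% of all genes were. The median log2 fold change of the 12 was 1.94, where that of all genes tested was -0.01. Within replicate 1 the 12 values ran between 1.20 and 3.39, and within replicate 2 between 1.33 and 2.84. Library totals used as the scale, with no TMM, shifted the median of all genes to 0.23 and that of the mt mRNAs to 2.18. It turned the split of all calls to 6128 higher and 3662 lower, in place of 4822 and 4909. With each library's trend on gene length removed, the median of the mt mRNAs was 2.52 and all 12 were still called higher.

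Complex I, the NADH dehydrogenase that starts the chain, has 7 of the mRNAs. mt-Nd1 had 912 and 935 CPM in the Rb1 libraries, against 264 and 235 CPM in the vehicle libraries, and was 3.70-fold higher (log2 fold change 1.89, SE 0.09, edgeR adjusted p = 6.1e-09). mt-Nd2 had 593 and 589 CPM in the Rb1 libraries, against 209.9 and 189 CPM in the vehicle libraries (2.96-fold). mt-Nd5 had 898 and 835 CPM in the Rb1 libraries, against 256 and 231 CPM in the vehicle libraries (3.56-fold). In each of these 3 genes both Rb1 libraries lay above both vehicle libraries by more than the libraries of a group differed. mt-Nd4 had 427 and 428 CPM in the Rb1 libraries, against 99.0 and 91.6 CPM in the vehicle libraries, and its adjusted p of 9.7e-10 (edgeR) was the smallest of all mt genes tested (log2 fold change 2.17, SE 0.08). mt-Nd3 had 24.9 and 24.0 CPM in the Rb1 libraries, against 8.73 and 6.48 CPM in the vehicle libraries (3.21-fold). mt-Nd4l, the smallest of the set with 297 bases, had 5.29 and 4.48 CPM in the Rb1 libraries, against 0.478 and 0.654 CPM in the vehicle libraries. Its fold of 8.54 (log2 3.09, SE 0.31, edgeR adjusted p = 3.9e-06) was the highest among the mRNAs tested. It rests on 8 and 11 counts in the vehicle libraries.

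mt-Nd6 is the only protein-coding gene on the minus strand and is also part of complex I. It had 205 and 185 CPM in the Rb1 libraries, against 75.2 and 67.2 CPM in the vehicle libraries (log2 fold change 1.45, SE 0.08, edgeR adjusted p = 4.4e-08). The sources used here do not say whether counting used strand, so reads of mt-Nd6 and of the opposite strand cannot be told apart. Its model also overlaps that of mt-Nd5 by 14 bases.

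The other respiratory subunits were higher as well. mt-Cytb, cytochrome b of complex III, had 1186 and 1176 CPM in the Rb1 libraries, against 515 and 469 CPM in the vehicle libraries. Its log2 fold change of 1.26 (SE 0.08, edgeR adjusted p = 1.1e-07) was the lowest among the mRNAs tested. The complex IV subunit mt-Co2 had 50.9 and 58.2 CPM in the Rb1 libraries, against 15.2 and 12.4 CPM in the vehicle libraries (3.96-fold). The third complex IV subunit, mt-Co3, had 43.4 and 25.4 CPM in the Rb1 libraries, against 7.47 and 6.12 CPM in the vehicle libraries (5.06-fold, edgeR adjusted p = 4.2e-04). Its Rb1 libraries differed more from each other than those of any other tested mt mRNA in proportion to the mean, and still lay above both vehicle libraries.

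Both mRNAs of ATP synthase subunits had low counts. mt-Atp6 had 16.3 and 22.7 CPM in the Rb1 libraries, against 2.69 and 3.15 CPM in the vehicle libraries (6.66-fold, edgeR adjusted p = 3.0e-07). mt-Atp8, the shortest mt mRNA with 204 bases, had 13 and 9 counts in the Rb1 libraries, against 1 and 1 in the vehicle libraries, and was not tested. The ratio of its summed counts, scaled to library size, was 9.36 with an exact 95% interval of 2.30 to 82.1, which covers counting error only. The models of mt-Atp8 and mt-Atp6 share 43 bases.

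**Figure D2:**
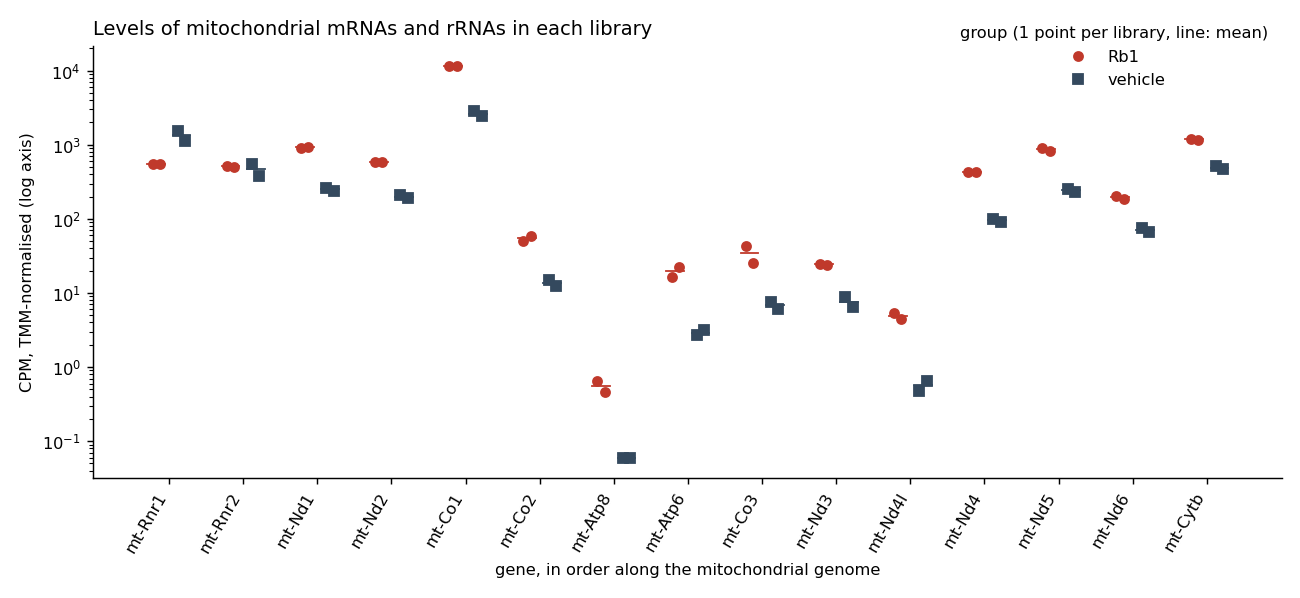
CPM of the 13 mRNAs and 2 rRNAs (log y axis) in order along the mitochondrial genome, with 1 point per library and a line at the mean of each group (Rb1 red circles, vehicle dark squares). Both Rb1 points lie above both vehicle points for each mRNA, below them for mt-Rnr1, and among them for mt-Rnr2, and the points from mt-Co2 to mt-Nd4l lie far below their neighbours in both groups.

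Levels of the mRNAs between mt-Co1 and mt-Nd4 stood apart from the rest. All of these but mt-Atp8 matched a nuclear copy nearly in full, while mt-Co1 and mt-Nd4, with higher levels, matched one in part. On chromosome 1, 7 unprocessed pseudogenes (chr1:24611535-24616197, GRCm38) each matched 1 mt mRNA. Some genes on other chromosomes shared 50-base windows as well, with few counts. Among them, Gm13340 on chromosome 2, which shares with mt-Co1, had 9 and 13 counts in the Rb1 libraries, against 2 and 2 in the vehicle libraries. Gm28661 (mt-Co2), Gm10925 (mt-Atp6), Gm28437 (mt-Co3), Gm10222 (mt-Nd4l) and Gm28439 (the first 876 bases of mt-Nd4) were identical to it over their whole length, Gm28438 had the single difference shown above, and Gm29216 matched the last 492 bases of mt-Co1 with 6 differences. Of all 100-base windows of mt-Co2, mt-Atp6, mt-Co3, mt-Nd3 and mt-Nd4l, over 90% occur in nuclear transcripts, against 60.8% for mt-Nd4 and 30.8% for mt-Co1. In mt-Nd2 it was 3.19%, and in mt-Nd1, mt-Nd5, mt-Nd6 and mt-Cytb 0%. mt-Atp8 lies between the copies of mt-Co2 and mt-Atp6, in a gap that no nuclear transcript covers, and the genome sequence there was not used here.

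Per length, on the deposited FPKM scale, the 5 mRNAs with over 90% shared windows had group means of 16.5 to 79.7 FPKM with Rb1 and 1.89 to 21.7 FPKM with vehicle. The 5 tested mRNAs with under 10% shared windows lay far above. In this second set, mt-Cytb had 1033 ± 6.98 FPKM with Rb1 and 426 ± 25.5 FPKM with vehicle, and mt-Nd1 had 965 ± 15.8 and 259 ± 20.3 (SD, n = 2 each). mt-Nd2 followed with 568.9 ± 3.4 FPKM with Rb1 and 190.5 ± 13.2 FPKM with vehicle, then mt-Nd5 with 475 ± 24.6 and 132 ± 9.05, and mt-Nd6 with 376 ± 27.4 and 136 ± 10.1. With vehicle the levels of mt-Nd5 and mt-Nd6 differed by less than the SD of either. The sources used here do not say how reads that match both genomes were counted, so FPKM of the copied genes are not comparable with those of the others.

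The nuclear copies themselves were called higher with Rb1 in 7 of 7 cases, where 35.7% of all genes tested were, with a median log2 fold change of 2.24. Since they share sequence with mt genes that were also called higher, this is not a separate result. Gm28661 had 880 and 724 counts in the Rb1 libraries, against 205 and 165 in the vehicle libraries. Gm28437 had 583 and 508 counts in the Rb1 libraries, against 113 and 83 in the vehicle libraries, and Gm10222 had 55 and 35 against 3 and 2. The 5 identical copies cannot be told apart from the matching stretch of their mt genes by sequence. Gm29216, with 6 differences from mt-Co1, had 372 and 310 counts in the Rb1 libraries, against 119 and 110 in the vehicle libraries (log2 fold change 1.34, SE 0.14). It aligned to bases 1054 to 1545 of mt-Co1, and its 6 differences lie between bases 1056 and 1066. Beyond these bases Gm29216 cannot be told apart from mt-Co1 by sequence. When the counts of each copy were added to its mt gene, an alternative chosen after seeing the data, 12 mt mRNAs were again called higher. mt-Atp6 then stood at 6.02-fold, mt-Co3 at 4.91-fold, mt-Co2 at 3.84-fold, mt-Nd3 at 3.21-fold and mt-Nd4l at 9.93-fold. Levels of these genes stayed low with the copies added. The highest, mt-Co2, had means of 95.2 CPM with Rb1 and 24.8 CPM with vehicle. The shorter mt-Nd6, lowest of the 5 tested mRNAs with under 10% shared windows, had 195 and 71.2 CPM. In the 5 tested mRNAs with under 10% shared windows log2 fold changes ran between 1.26 and 1.89, and in the 5 with over 90% between 1.68 and 3.09. Across the 12 tested mRNAs the log2 fold change had a Spearman rho of 0.72 with the share of copied windows, -0.57 with the vehicle CPM, -0.27 with position along the genome and -0.20 with length. These are descriptions over 12 genes of the same 4 libraries, and shared sequence and low counts go together in them. The fold change is itself computed from the vehicle level, so a negative rho with vehicle CPM is in part built in.

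**Figure D3:**
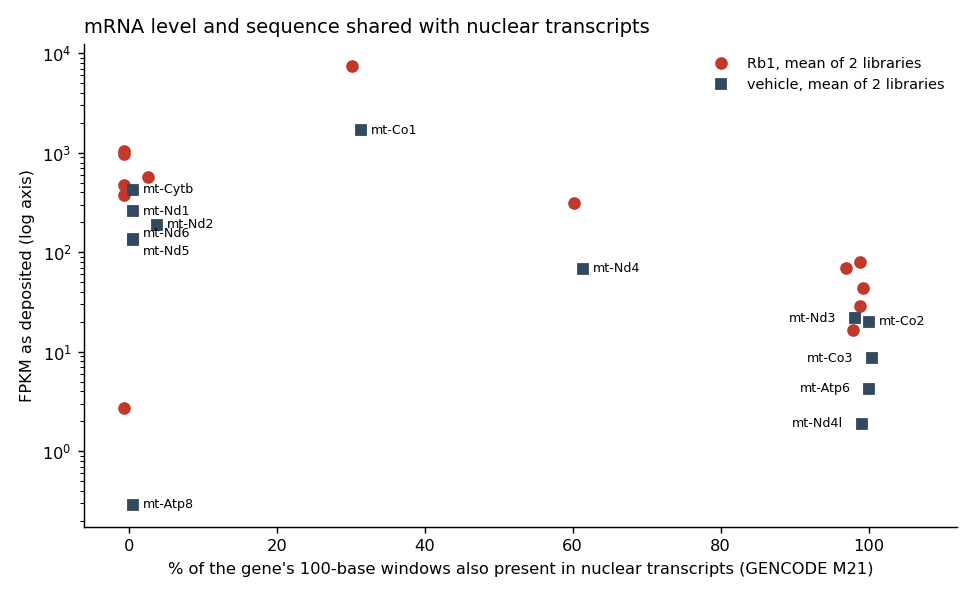
Mean deposited FPKM (log y axis) of each mt mRNA against the percent of its 100-base windows also present in nuclear transcripts (x axis), Rb1 as red circles and vehicle as dark squares labelled with the gene, the pair of each gene set slightly apart sideways. The 5 genes at the right edge lie below the genes at the left edge in both groups, mt-Atp8 excepted. No nuclear transcript covers mt-Atp8, and whether the genome holds a copy of it was not looked up.

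The ribosomal RNAs did not follow the mRNAs. mt-Rnr1 (ENSMUSG00000064337, chrMT:70-1024), the RNA of the small ribosomal subunit, had 544 and 552 CPM in the Rb1 libraries, against 1537 and 1136 CPM in the vehicle libraries. It fell 2.44-fold (log2 fold change -1.29, SE 0.12, edgeR adjusted p = 2.2e-06). mt-Rnr2 (chrMT:1094-2675), the RNA of the large subunit and the next gene but one, had 520.2 and 504 CPM in the Rb1 libraries, against 554 and 377 CPM in the vehicle libraries. The groups overlapped (log2 fold change 0.14, SE 0.15, edgeR adjusted p = 0.44), and its sign and call depended on the vehicle libraries. With vehicle replicate 1 left out it was called higher (log2 0.43, edgeR adjusted p = 2.7e-18). With vehicle replicate 2 left out it was called lower (-0.11, edgeR adjusted p = 0.0265). In both fits the lone vehicle library is assumed to vary like the others. It was also called higher with library totals (0.39, adjusted p = 0.0124) and with the length trend removed (0.59, adjusted p = 0.00594). With the length trend removed mt-Rnr1 stayed lower, at -0.72.

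Ratios inside a library do not depend on library scaling. mt-Rnr1 had 1.05 and 1.09 counts for each count of mt-Rnr2 in the Rb1 libraries, against 2.78 and 3.01 in the vehicle libraries. For each count of mt-Nd1, the first mRNA after the rRNAs, mt-Rnr1 had 0.596 and 0.590 counts in the Rb1 libraries, against 5.81 and 4.84 in the vehicle libraries. Both rRNAs together had 0.0666 and 0.0669 counts for each mt mRNA count in the Rb1 libraries, against 0.486 and 0.406 in the vehicle libraries. No Rb1 value overlapped a vehicle value in these 3 ratios, and the smallest exact permutation p that 2 against 2 allows is 0.333. Rows of the nuclear rRNA biotype held 0.111% and 0.0931% of counts in the Rb1 libraries, against 0.0869% and 0.0746% in the vehicle libraries. The sources used here do not say whether libraries were selected for poly(A) or depleted of rRNA.

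**Figure D4:**
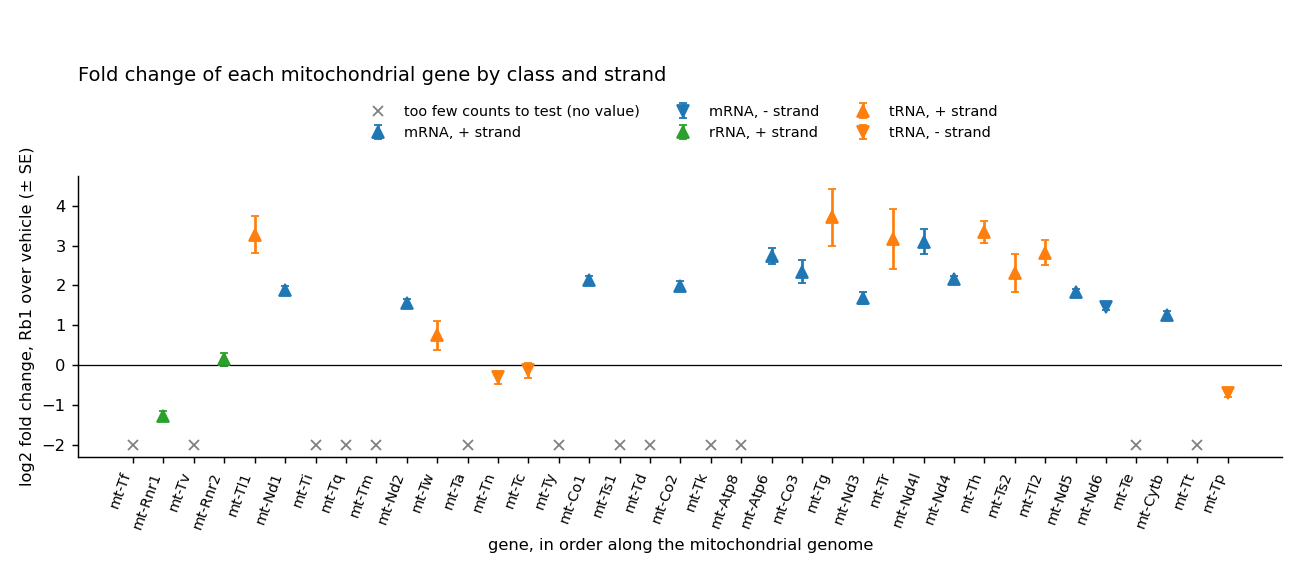
Log2 fold change of Rb1 over vehicle (y axis, ± SE) for the 24 tested mt genes in order along the genome, coloured by class and with up or down triangles for the plus or minus strand; crosses at the bottom mark the 13 genes with too few counts to test and carry no value. The mRNAs lie between 1.26 and 3.09, mt-Rnr1 at -1.29, the plus-strand tRNAs between 0.74 and 3.71 and the 3 minus-strand tRNAs between -0.70 and -0.14.

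On the TMM scale the tested tRNAs, 7 of the plus strand and 3 of the minus strand, differed by strand. The table's tRNA models are 59 to 75 bases long, and the sources used here do not say how reads across the border to a neighbouring gene were counted. Whether counting used strand is not stated either, so reads of a tRNA gene and of its opposite strand cannot be told apart. The 14 tRNA genes of the plus strand summed to 356 and 377 counts in the Rb1 libraries, against 62 and 44 in the vehicle libraries. The 8 of the minus strand summed to 1589 and 1437 counts in the Rb1 libraries, against 2058 and 1529 in the vehicle libraries. The plus-strand sums did not overlap between groups, and the minus-strand sums did. Of the 22 tRNA genes 10 could be tested, of which 6 were called higher, 1 lower and 3 not called. Over all genes tested 72% were called, with 35.7% higher and 36.3% lower.

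All 6 that rose lie on the plus strand. mt-Th, shown above, had 115 and 114 counts in the Rb1 libraries, against 10 and 9 in the vehicle libraries (log2 fold change 3.34, SE 0.28, edgeR adjusted p = 8.8e-07). It lies in a run of 3 tRNA genes between mt-Nd4 and mt-Nd5. The next in that run, the serine tRNA mt-Ts2, had 39 and 38 counts in the Rb1 libraries, against 10 and 3 in the vehicle libraries, and the third, mt-Tl2, had 85 and 99 against 13 and 9. Their log2 fold changes were 2.31 for mt-Ts2 and 2.82 for mt-Tl2. The value of mt-Ts2 depended on the vehicle libraries, at 3.40 without vehicle replicate 1 and 1.70 without vehicle replicate 2. The other leucine tRNA, mt-Tl1, adjoins mt-Rnr2 and mt-Nd1 and had 45 and 37 counts in the Rb1 libraries, against 4 and 3 in the vehicle libraries (log2 3.27, SE 0.46, edgeR adjusted p = 6.0e-05). The glycine tRNA mt-Tg had 19 and 15 counts in the Rb1 libraries, against 1 and 1 in the vehicle libraries, a ratio of 14.5 with an exact 95% interval of 3.71 to 124 (edgeR adjusted p = 6.2e-04). The arginine tRNA mt-Tr had 19 and 36 counts in the Rb1 libraries, against 5 and 0 in the vehicle libraries (edgeR adjusted p = 0.0027), and on the log2(FPKM + 0.1) scale its call was lost (limma adjusted p = 0.142), as it was on log2(FPKM + 1) with no filter (0.0642). Its log2 fold change of 3.17 was 2.20 without vehicle replicate 2, and without vehicle replicate 1 the remaining vehicle library was at 0. Both mt-Tg and mt-Tr lie between mt-Co3 and mt-Nd4l, in gaps between the nuclear copies that no nuclear transcript covers. The genome sequence there was not used here, so whether reads of mt-Tg and mt-Tr also match it was not tested. The tryptophan tRNA mt-Tw had 29 and 38 counts in the Rb1 libraries, against 16 and 18 in the vehicle libraries. It was not called (log2 0.74, edgeR adjusted p = 0.0831), and was called with library totals (log2 0.99, adjusted p = 0.0241).

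The best-counted tRNA genes lie on the minus strand. mt-Tp, next to the non-coding control region, had 723 and 701 counts in the Rb1 libraries, against 1080 and 885 in the vehicle libraries, and fell 1.62-fold on the TMM scale (log2 -0.70, SE 0.10, edgeR adjusted p = 8.4e-05). With the length trend removed its log2 fold change was -0.02 and the call was lost (adjusted p = 0.861). mt-Tn had 596 and 489 counts in the Rb1 libraries, against 681 and 463 in the vehicle libraries (log2 -0.31, SE 0.16, edgeR adjusted p = 0.0970). It was called lower with the replicate number as a block (-0.30, adjusted p = 0.0206). It was also called lower when Rb1 replicate 1 was left out (-0.43, adjusted p = 0.0174) and when vehicle replicate 2 was (-0.57, adjusted p = 1.5e-08). With the length trend removed it was called higher (0.38, adjusted p = 0.00461). mt-Tc had 258 and 225 counts in the Rb1 libraries, against 282 and 170 in the vehicle libraries (log2 -0.14, SE 0.20, edgeR adjusted p = 0.55), with the same turn under the length trend (0.55, adjusted p = 0.00377). Without vehicle replicate 2 it was called lower (-0.46, adjusted p = 0.00173). Of these 3 tRNAs, the length setting ended the call of 1 and turned the direction of 2.

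The remaining 12 tRNA genes had too few counts. mt-Ty had 4 and 16 counts in the Rb1 libraries, against 6 and 3 in the vehicle libraries, and mt-Ta had 6 and 6 against 9 and 5. mt-Te, mt-Ti, mt-Tt, mt-Tv and mt-Tm had between 1 and 5 counts over all 4 libraries. mt-Tf, mt-Tq, mt-Ts1, mt-Td and mt-Tk had 0 in every library, which allows up to 3 counts per library, or 0.150 to 0.179 CPM. Of these, mt-Td and mt-Tk flank mt-Co2. With mt-Ts1 they lie between mt-Co1 and mt-Atp8, in gaps between the nuclear copies that no nuclear transcript covers. The genome sequence there was not used here.

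Set against the mt mRNAs as a whole, several members still differed. For this, each library's size was replaced by its summed counts of the 13 mt mRNAs, so that a gene that changed like their sum stands at 0. Of all genes tested, 0.784% were called higher and 93.1% lower on this scale. Of the 24 tested mt genes 5 were called higher and 9 lower. mt-Cytb was lower relative to the mt mRNAs, with 7.43% and 7.45% of their counts in the Rb1 libraries, against 11.9% and 12.6% in the vehicle libraries (log2 fold change -0.72, SE 0.10, edgeR adjusted p = 2.2e-08). mt-Nd6 had 1.28% and 1.17% in the Rb1 libraries, against 1.75% and 1.81% in the vehicle libraries (-0.53, edgeR adjusted p = 5.5e-04), and mt-Nd2 had 3.71% and 3.73% against 4.87% and 5.07% (-0.42, edgeR adjusted p = 0.0010). mt-Atp6 and mt-Nd4l, both copied genes with low counts, were higher relative to the sum (0.75 and 1.12, edgeR adjusted p = 0.0017 and 0.0066). mt-Nd1, mt-Nd3, mt-Nd4, mt-Nd5, mt-Co1, mt-Co2 and mt-Co3 were not called, with log2 fold changes between -0.29 and 0.36.

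Both rRNAs and the 3 tested minus-strand tRNAs were called lower relative to the mt mRNAs. mt-Rnr1 stood at -3.26 (SE 0.10, edgeR adjusted p = 2.8e-28) and mt-Rnr2 at -1.83. mt-Tp stood at -2.68, mt-Tn at -2.29 and mt-Tc at -2.11, and the plus-strand mt-Tw at -1.24. mt-Th (1.37), mt-Tl1 (1.32) and mt-Tl2 (0.85) were called higher. The calls of mt-Cytb, mt-Th, both rRNAs, mt-Tp, mt-Tn and mt-Tc were kept without each library in turn. That of mt-Nd2 was lost without Rb1 replicate 1 (edgeR adjusted p = 0.0926) and without Rb1 replicate 2 (0.0875), and that of mt-Tl1 without any of the 4 libraries (0.0728 to 0.147). Without Rb1 replicate 2 the calls of mt-Nd6 (0.110), mt-Atp6 (0.136) and mt-Tl2 (0.184) were lost, and without vehicle replicate 2 those of mt-Tl2 (0.113) and mt-Tw (0.0668). Without Rb1 replicate 1 those of mt-Nd4l (0.0625) and mt-Tw (0.0757) were lost, and without vehicle replicate 1 that of mt-Nd4l (0.0781). Conversely, without vehicle replicate 1 mt-Co1, mt-Nd1, mt-Nd4, mt-Nd5, mt-Co3 and mt-Tr were called as well, without vehicle replicate 2 mt-Co1, mt-Nd3, mt-Nd4, mt-Nd5 and mt-Co3, and without Rb1 replicate 2 mt-Co3. Since mt-Co1 holds most of the sum, its weight sets the zero: with mt-Co1 left out of the sum, mt-Co1 stood at 0.49 and was called, as were mt-Nd1 (0.24), mt-Nd4 (0.52), mt-Co2 (0.34) and mt-Co3 (0.70), all higher, while mt-Nd2 (-0.08) and mt-Nd6 (-0.19) were not.

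**Figure D5:**
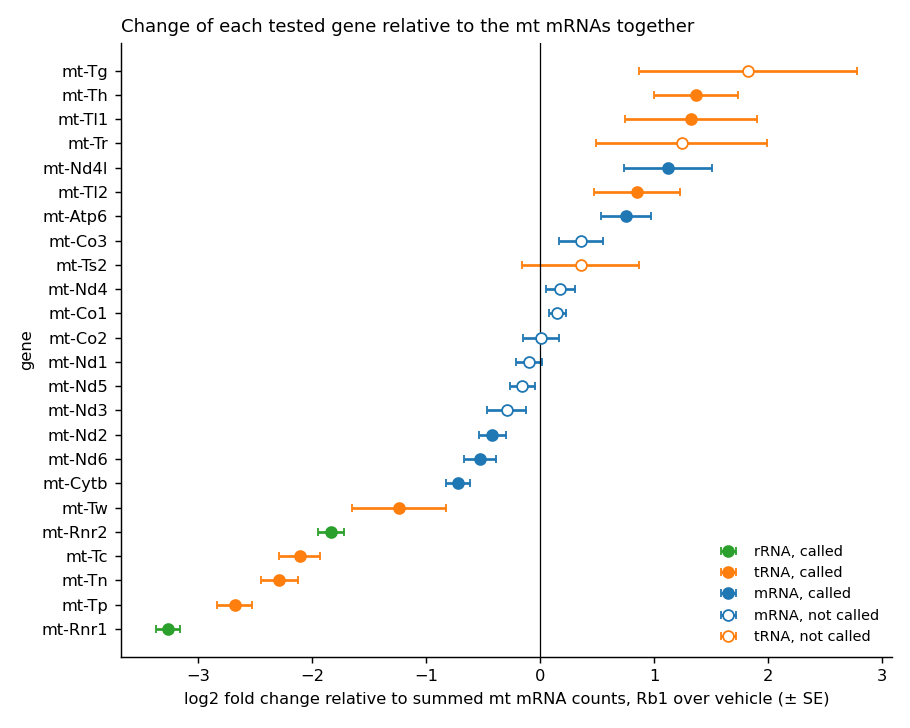
Log2 fold change of Rb1 over vehicle relative to the summed mt mRNA counts (x axis, ± SE) for the 24 tested mt genes (y axis, sorted), coloured by class and filled where the edgeR adjusted p is under 0.05. mt-Rnr1 is lowest at -3.26, the rRNAs and minus-strand tRNAs lie below all mRNAs, and 4 of the 5 genes called higher at the top are shown with standard errors of at least 0.368.

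Nuclear genes that serve the mitochondrial genome moved in both directions. Of 154 such genes in 8 lists 152 were tested, and 64 were called higher, 41 lower and 47 not called, with a median log2 fold change of 0.13. The background was 35.7% higher and 36.3% lower. Over all genes, library totals gave 6128 higher and 3662 lower, and removal of the length trend gave 4555 and 4925. Among 11 tested genes of mtDNA transcription 3 were higher and 4 lower (5 and 3 with library totals). With the length trend removed 5 were higher and 2 lower. Polrmt, the polymerase, had 35.9 ± 1.03 CPM with Rb1 and 25.9 ± 0.180 CPM with vehicle (SD, n = 2 each; log2 0.47, SE 0.09, edgeR adjusted p = 6.6e-04). Its factors Tfam (log2 0.09, edgeR adjusted p = 0.46) and Tfb2m (log2 0.19, edgeR adjusted p = 0.0735) were not called. The elongation factor Tefm was lower (-0.68, edgeR adjusted p = 7.5e-04), a call lost with the length trend removed (-0.23, adjusted p = 0.0817).

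RNA stability and decay had 4 of 11 higher and 3 lower, and the median of -0.06 became 0.19 with library totals and 0.03 with the length trend removed. Lrpprc had 139.7 ± 1.90 CPM with Rb1 and 61.0 ± 5.12 CPM with vehicle (log2 1.19, SE 0.08, edgeR adjusted p = 1.6e-07). Its partner Slirp had 4.79 ± 0.0723 CPM with Rb1 and 9.15 ± 1.43 CPM with vehicle (log2 -0.93, SE 0.18, edgeR adjusted p = 5.3e-04). The helicase Supv3l1 was higher at 28.9 ± 1.71 CPM with Rb1 and 18.8 ± 2.15 CPM with vehicle, and the nuclease Endog lower at 5.11 ± 0.797 and 16.6 ± 4.20 CPM.

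Of 42 genes of RNA processing and modification 13 were higher and 13 lower, with a median of -0.01. With library totals 20 were higher and 9 lower, with a median of 0.24. With the length trend removed 17 were higher and 14 lower. Fastkd1, of a family that binds mt RNA, had 27.6 ± 1.34 CPM with Rb1 and 6.32 ± 0.534 CPM with vehicle (log2 2.12, SE 0.13, edgeR adjusted p = 5.6e-08). Mto1, which modifies mt tRNAs, was higher at 36.1 ± 0.924 and 18.0 ± 0.417 CPM. Trmt10c, a subunit of mitochondrial RNase P that cuts tRNAs from the precursor, was lower at 39.3 ± 2.31 CPM with Rb1 and 60.6 ± 1.32 CPM with vehicle, as was Osgepl1 (13.0 ± 1.76 and 29.3 ± 1.39 CPM).

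In mtDNA replication and the nucleoid 9 of 18 were higher and 4 lower (11 and 2 with library totals). With the length trend removed 10 were higher and 6 lower. Among those higher were the DNA ligase gene Lig3 (85.4 ± 2.84 CPM with Rb1, 41.5 ± 2.47 CPM with vehicle) and Rrm2b (42.7 ± 2.98 and 19.8 ± 0.130 CPM). The thymidine kinase gene Tk2 was among those lower (18.4 ± 1.28 and 30.5 ± 3.45 CPM). Enzymes that charge mt tRNAs were higher in 13 of 23 and lower in 4, and with library totals in 14 and 0. With the length trend removed 12 were higher and 6 lower. Vars2, for valine, had 57.4 ± 2.94 CPM with Rb1 and 21.9 ± 2.81 CPM with vehicle. Translation factors were higher in 7 of 18 and lower in 6 (11 and 4 with library totals, 10 and 4 with the length trend removed), with the elongation factor gene Gfm1 at 96.4 ± 2.03 CPM with Rb1 and 43.7 ± 2.59 CPM with vehicle, while Mrrf, the ribosome recycling factor gene, was lower at 23.9 ± 0.0699 and 34.3 ± 1.67 CPM.

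Regulators of mitochondrial biogenesis were higher in 9 of 13 and lower in 2 (9 and 0 with library totals, 8 and 4 with the length trend removed). Pprc1, a relative of PGC-1, had 76.0 ± 1.37 CPM with Rb1 and 24.5 ± 2.76 CPM with vehicle (log2 1.63, SE 0.10, edgeR adjusted p = 4.5e-08). Gabpa, a transcription factor of respiratory genes, had 85.9 ± 0.429 and 51.2 ± 1.92 CPM. In the list of mitophagy, fission and fusion 7 of 18 were higher and 6 lower (12 and 4 with library totals, 8 and 8 with the length trend removed). Opa1, the inner membrane fusion gene, was higher at 132 ± 0.221 CPM with Rb1 and 42.7 ± 4.87 CPM with vehicle. The mitophagy receptor genes Bnip3 (252 ± 11.1 and 1261 ± 158 CPM) and Bnip3l (138 ± 5.91 and 494 ± 14.4 CPM) were lower, as was the mitophagy kinase gene Pink1 (24.4 ± 0.120 and 50.4 ± 0.856 CPM).

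GC content lay between 31.9% and 41.1% in the 13 mRNAs, at 35.4% and 35.8% in the 2 rRNAs and between 17.1% and 44.9% in the tRNAs. The models of 3 mRNAs, mt-Co3, mt-Nd4 and mt-Cytb, end on the first base of a stop codon, which in mammals is completed by polyadenylation. Their log2 fold changes were 2.34, 2.17 and 1.26, of which the first 2 lay within the range of the other tested mRNAs and that of mt-Cytb below it. Among nuclear-retained RNAs Malat1 had 744 ± 54.4 CPM with Rb1 and 455 ± 29.4 CPM with vehicle, and Neat1 had 323 ± 22.8 and 635 ± 57.6 CPM, so these moved in opposite directions.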

How the data were processed

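The authors deposited raw counts per gene and FPKM values per gene for 4 libraries, per the file headers and the design text, with replicates not pooled. The sources used here do not name the aligner, counting program, strand setting, library kit or treatment of reads that match several places. Per the submitters' processing notes the build is GRCm39 (mm39), but the table's coordinates are those of GRCm38: 98.3% of the 54409 gene IDs found in GENCODE M21 have identical positions there, and all 37 mt genes do. Genes were tested with edgeR 4.0.16 (filterByExpr, TMM, quasi-likelihood, robust, one term for treatment, two-sided, Benjamini-Hochberg over 13518 genes, threshold 0.05). The standard error is the log2 fold change divided by the square root of F. A second fit took the summed mt mRNA counts as library sizes.

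The labels give the replicate number as the batch in each group, but do not say what separated the batches. The numbers were taken to pair the libraries for the replicate block and for values within a replicate, not in the main fit. The deviations of libraries with one number had a correlation of -0.05, so a shared batch was not seen in the data. Windows of 50, 100 and 150 bases of each mt gene were looked up in all nuclear GENCODE M21 transcripts on both strands. In simulated counts for this comparison over 13518 genes, 65 of 100 genes changed 1.5-fold and 78 of 100 changed 2-fold were called, and 8 of 13318 unchanged genes. The simulation took its spread from the fit and left nearly all genes unchanged, whereas 72% were called in the data. It therefore checks the fit and does not measure false calls in these data. Alternatives were other scalings, filters, DESeq2 1.42.0, limma 3.58.1 on counts and on log2(FPKM + 1) or log2(FPKM + 0.1), removal of the length trend, the replicate block and each library left out. The members and the 8 nuclear lists were chosen with earlier results of these data known. All mt genes were to be named or counted, with up to 4 called members of each list in each direction by smallest p, of which some are left out for length. Mtres1 was not matched to a row. Counts without molecular identifiers are not independent molecules, so intervals and floors cover counting error only.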

Additional observations from a re-analysis of the deposited data

How the results depend on the processing

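All alternatives called 12 or 13 mt mRNAs higher and 0 lower, and between 7 and 11 of the mt rRNAs and tRNAs in place of 8. With the replicate number as a block 9653 genes, 12 mt mRNAs higher and 9 mt rRNAs and tRNAs were called, against 9731, 12 and 8, and mt-Tn was the only mt gene whose call it changed. Genes called lay between 8435 and 10328. The mt genes called relative to the summed mt mRNA counts numbered between 10 and 19, against 14. As a share of summed FPKM the difference in mitochondrial share was 2.97 percentage points in place of 1.31.

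Of 407 fold changes of mt genes under an alternative, 386 kept direction and side of the threshold, 13 gained a call, 3 lost it and 5 changed sign. Those that changed sign were mt-Tc with library totals (0.11), with the length trend removed (0.55) and without vehicle replicate 1 (0.27), mt-Tn with the length trend removed (0.38) and mt-Rnr2 without vehicle replicate 2 (-0.11). Without each library in turn mt-Tc ran between -0.46 and 0.27 and mt-Rnr2 between -0.11 and 0.43. Relative to the mt mRNAs, mt-Nd1 changed sign with mt-Co1 left out of the sum (0.24), and with all counts of chromosome MT as the sum mt-Nd1 (0.36), mt-Nd5 (0.30) and mt-Nd2 (0.037) did. In these relative fits the change of the zero follows from the sum itself; for the others the cause was not tested. The 13 untested genes had too few counts, for a cause that was not tested, and 5 tRNA genes with 0 counts are not shown to be absent.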
